A study of Mus musculus with 39 samples.

Results

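The genes described here are 10 transcripts of blood vessel endothelium, Pecam1, Cdh5, Kdr, Tek, Tie1, Emcn, Esam, Vwf, Sele and Selp, chosen by symbol from the 39676 genes of the deposited count table because their products mark endothelial cells or bind leukocytes at the vessel wall. All 10 have a row in the table and all 10 had enough counts to be tested in every comparison. They were measured by RNA sequencing in 39 subcutaneous tumours grown in BALB/c mice from AB1-HA cells, a murine mesothelioma line expressing influenza haemagglutinin. The PBS group (10 tumours) received PBS and no active agent. The Tretinoin group (9 tumours) received tretinoin, all-trans retinoic acid, at 5 mg/kg daily for 5 days from day 4 after inoculation. The ICT group (10 tumours) received immune checkpoint therapy, 100 µg of antibody to CTLA-4 and 100 µg of antibody to PD-L1, from day 7. The Tretinoin+ICT group (10 tumours) received both. Tumours were resected on day 9. In the Tretinoin+ICT group, mice bore a tumour on each flank, and the labels divide the sequenced tumours into 6 of responders and 4 of non-responders according to the outcome of the tumour left in place. The mice were of both sexes and were 8 to 10 weeks old when obtained.

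Endothelial cells line every blood vessel and are held together at their junctions by VE-cadherin (Cdh5), PECAM-1 (Pecam1) and ESAM (Esam). They respond to vascular endothelial growth factor through VEGFR2 (Kdr) and to angiopoietins through the receptor TIE2 (Tek), with TIE1 (Tie1) as its partner. When a vessel is inflamed, P-selectin (Selp) and von Willebrand factor (Vwf), which are stored together in Weibel-Palade bodies, are released to the cell surface and blood, and E-selectin (Sele) is made anew under inflammatory signals. Both selectins catch rolling leukocytes.

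After tretinoin Sele was lower and Selp higher, and the genes lie close together on one chromosome. On the GENCODE M21 annotation of GRCm38, Sele lies on the plus strand of chromosome 1 from 164048234 to 164057677 and Selp on the same strand from 164115264 to 164150026, so that their start sites are 67030 bases apart. The 250 bases before the start of each endothelial selectin, from RefSeq on GRCm38.p6 at chr1:164047984-164048233 and chr1:164115014-164115263, both plus strand, are shown because the transcripts differ in direction. Capitals mark TGACATCA and TATAAA in Sele and TGACCT, which is AGGTCA on the opposite strand, in Selp.
Sele promoter: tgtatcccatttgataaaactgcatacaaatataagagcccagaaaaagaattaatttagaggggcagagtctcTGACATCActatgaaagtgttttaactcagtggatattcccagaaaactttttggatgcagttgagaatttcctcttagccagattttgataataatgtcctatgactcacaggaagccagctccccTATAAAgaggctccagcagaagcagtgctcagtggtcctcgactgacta
Selp promoter: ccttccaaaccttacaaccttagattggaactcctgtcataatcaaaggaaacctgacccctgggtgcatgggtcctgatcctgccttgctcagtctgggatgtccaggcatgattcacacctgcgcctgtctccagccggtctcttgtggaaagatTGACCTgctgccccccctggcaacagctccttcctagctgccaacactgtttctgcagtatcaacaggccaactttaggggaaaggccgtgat

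Promoter windows were given for 6 of the 10 genes, and motifs were searched on both strands over 250 bases before to 50 bases after the start. TGACATCA, which starts 176 bases before the start of Sele, occurred in 3.62% of 32851 promoters of this length. TATAAA, 49 bases before the start of Sele, occurred in 13.6% of them. AGGTCA, the hexamer bound by many nuclear receptors, occurred in 16.3% and was found once in Selp, starting 93 bases before its start, and at 2 places in Emcn. The similar hexamer GGTTCA occurred in 10.4% and was in none of the 6 windows. Direct repeats of the nuclear receptor hexamer with a spacer of 1, 2 or 5 bases, the usual forms of a retinoic acid response element, were in 0.222%, 0.268% and 0.0974% of promoters and in none of the 6 windows. Short motifs of the GATA, ETS and STAT families were searched as well and are not described. These matches describe the letters in the windows and no binding was measured.

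Sequencing depth, as the sum of counts in a tumour, was between 14033046 and 37951183 (median 18548168), and the lowest count of any of the 10 genes in any tumour was 88, for Vwf. Levels are given as counts per 1000000 counts after TMM normalisation (CPM), and a gene passed a test at an adjusted p below 0.05 in edgeR's quasi-likelihood test with Benjamini-Hochberg adjustment over all genes. Every adjusted p for a gene below comes from that test unless another tool is named. The p-values set a difference against the spread between single tumours. In whole tumours, fewer endothelial cells and less RNA per endothelial cell cannot be told apart. The tumours' names form 2 series within each treatment, by their first digit, and no series holds more than 1 treatment, so series and treatment cannot be told apart. The tests between treatments take the tumours of a series as independent. The tumours named 14 (PBS), 33 (Tretinoin), 63 and 82 (ICT) had the most leukocyte marker transcripts of their groups and stood apart in that list. Results that change without them are given both ways.

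**Figure D1:**
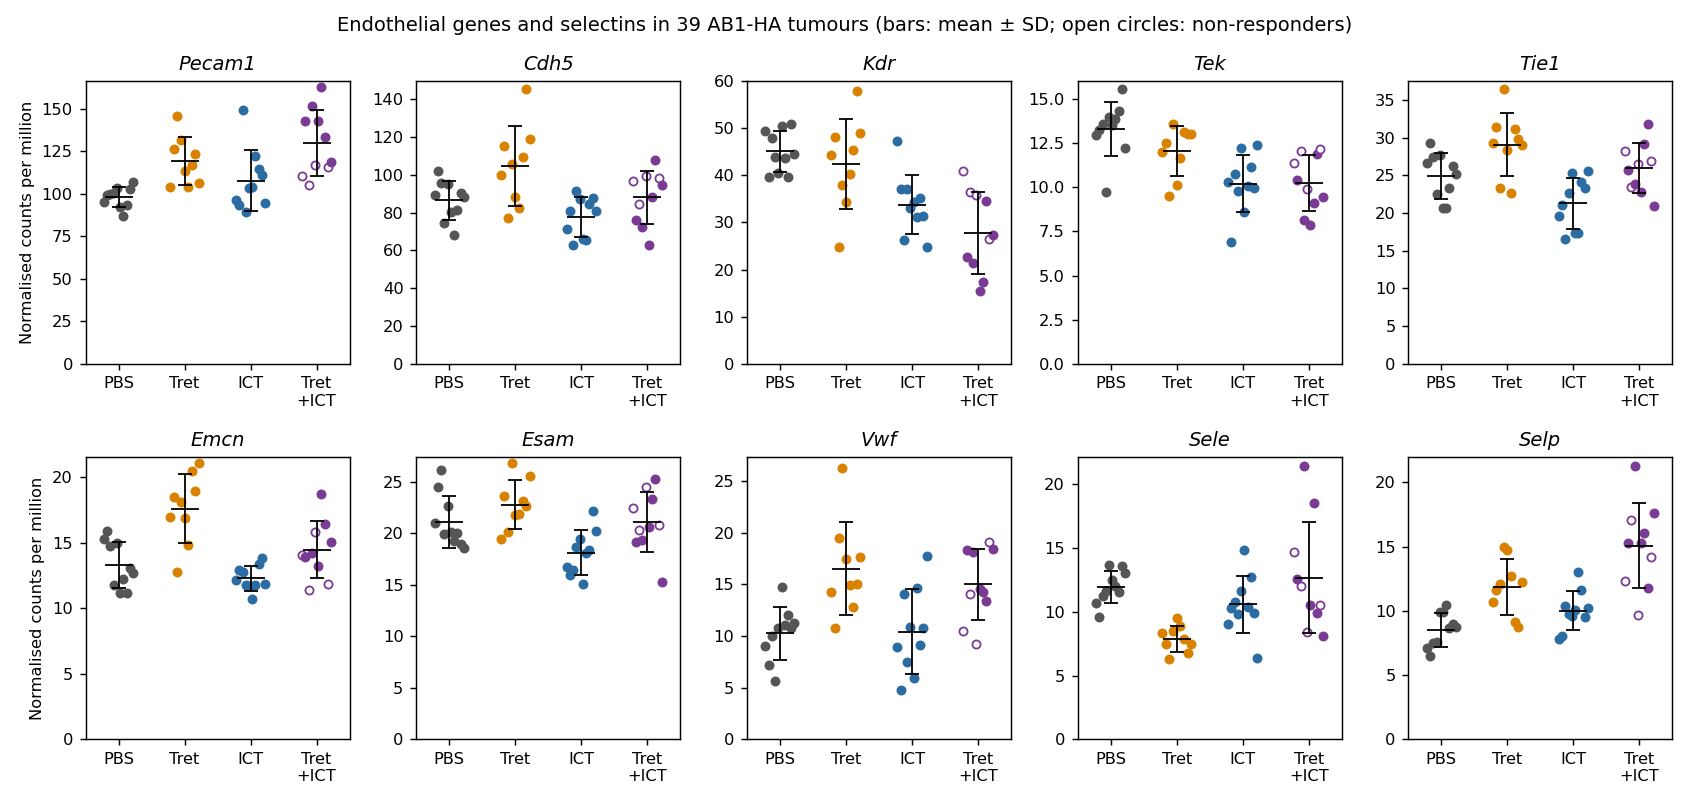
CPM (vertical axes, starting at 0) of the 10 genes in each of 39 tumours, by treatment group (Tret, tretinoin). Bars are the mean ± SD and open circles are the 4 non-responders; the 9 Tretinoin tumours lie below every PBS tumour for Sele.

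The order of the genes was set out in untreated tumours on a scale that allows genes to be compared, CPM per kilobase of exon. Cdh5 was the most abundant in the PBS group at 20.6 ± 2.45 (SD, n = 10), followed by Pecam1 at 15.7 ± 0.973 and Esam at 7.36 ± 0.875. Tie1 (5.07 ± 0.618) and Kdr (4.99 ± 0.490) were next and did not differ beyond their spread, with Tie1 above Kdr in 5 of 10 tumours. Sele (4.10 ± 0.438) followed and was above Tek (2.82 ± 0.327) in 10 of 10 tumours. Tek lay above Emcn (2.46 ± 0.330), which encodes the sialomucin endomucin, in 7 of 10 tumours. Selp (1.93 ± 0.301) was lower still, and Vwf was the lowest at 0.640 ± 0.159. On this scale Selp was below Sele in each of the 10 PBS tumours.

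The first comparison asked what tretinoin alone changed. Of the 10 genes, 4 were higher and 1 was lower after tretinoin, where 11.5% of all 14340 genes tested were higher and 8.95% lower. Their median log2 fold change was 0.25 and that of all genes 0.01. Sele had from 9.61 to 13.6 CPM in the PBS group (median 11.8) and from 6.33 to 9.50 CPM in the Tretinoin group (median 7.82). All 9 Tretinoin tumours were below all 10 PBS tumours, which held for 0.501% of genes in this direction. The log2 fold change of Sele was -0.60 (SE 0.08, adjusted p 2.25e-05), and it lay between -0.69 and -0.52 in the 4 pairings of 1 Tretinoin with 1 PBS name series.

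Selp moved in the opposite direction, from 6.52 to 10.5 CPM in the PBS group (median 8.69) and from 8.74 to 14.98 CPM after tretinoin (median 12.1). In 7 of 9 Tretinoin tumours Selp was above every PBS tumour, and the log2 fold change was 0.47 (SE 0.11, adjusted p 0.00459). Across the pairings of name series it ranged from 0.20 to 0.71. Vwf, whose product tethers platelets to damaged vessel walls, had the largest rise among the 10 genes. It had from 5.66 to 14.8 CPM with PBS (median 10.8) and from 10.8 to 26.3 CPM with tretinoin (median 15.05). Although the groups overlapped, 6 of 9 Tretinoin tumours exceeded every PBS tumour, with a log2 fold change of 0.68 (SE 0.16, adjusted p 0.00590). The pairings of name series gave values from 0.33 to 1.03 for Vwf, which passed in 1 of the 4.

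Emcn and Pecam1 were also higher after tretinoin. Emcn had from 11.2 to 15.9 CPM with PBS (median 12.9) and from 12.8 to 21.1 CPM with tretinoin (median 18.1), a log2 fold change of 0.40 (SE 0.09, adjusted p 0.00469) that ranged from 0.18 to 0.64 over the pairings of name series. Pecam1 had from 86.6 to 107 CPM with PBS (median 99.5) and from 104 to 146 CPM with tretinoin (median 117), a log2 fold change of 0.28 (SE 0.06, adjusted p 0.00277). Each Tretinoin tumour was above the PBS median for Pecam1, and 6 of 9 were above every PBS tumour. Cdh5 (log2 fold change 0.27, adjusted p 0.0592) and Tie1 (0.22, adjusted p 0.0714) did not pass, and neither did Esam (0.11), Kdr (-0.09) or Tek (-0.14). Cdh5 passed in DESeq2 (adjusted p 0.0481), which called 21.3% of genes, and without the 4 tumours that stood apart (adjusted p 0.0373), where 11.8% of genes were higher.

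The markers of other cells that could carry these transcripts were set beside them. Platelets hold Pecam1, Vwf and Selp, and the summed level of the 10 platelet and megakaryocyte genes found in the table ranged from 37.8 to 51.1 CPM with PBS and from 36.3 to 60.3 CPM with tretinoin, with none of the 4 that could be tested passing. The 7 leukocyte genes, whose cells can also carry Pecam1, summed to between 1239 and 2278 CPM with PBS and between 1349 and 2747 CPM with tretinoin. Laptm5 and Itgb2 were the 2 of these 7 that were higher. Of 6 macrophage genes 3 were higher, C1qa at 0.45, C1qb at 0.49 and Fcgr1 at 0.63 on the log2 scale, and the list summed to between 1994 and 3062 CPM with PBS and between 2178 and 4432 CPM with tretinoin. None of the 4 neutrophil genes tested passed. The part of leukocytes and macrophages in the rise of Pecam1 was not tested.

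Other endothelial genes were read against the 10. Of 22 further endothelial identity genes in the table, 10 were higher in the Tretinoin group and 2 lower, and the list had a median change of 0.20 on the log2 scale. The largest rise was that of Sox17, a transcription factor of arterial endothelium, at 1.08 (adjusted p 1.65e-06), followed by Robo4, a receptor that stabilises vessels, at 0.59. Cd34, a sialomucin of endothelial and progenitor cells, had a log2 fold change of -0.32 and Calcrl, the receptor subunit for adrenomedullin, of -0.21. Among 11 genes of vessel subtypes, Nr2f2, the transcription factor of venous identity, and Efnb2, an arterial ligand, were higher by 0.75 and 0.45 on the log2 scale, and Apln, a tip cell peptide, had a change of -0.59. In the VEGF and angiopoietin list, 4 of 10 genes were higher and 3 lower, with Angpt4 at 1.01, Vegfa at 0.96, its decoy receptor Flt1 at 0.54 and Vegfc at -0.87. Vcam1, which like the selectins binds leukocytes on activated endothelium, was higher by 0.64 (adjusted p 0.00629).

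Of the 10 genes, Cdh5 and Selp overlap other annotated genes on the opposite strand and the counting is not stated to use strand. Gm29682, which overlaps Cdh5, had no count in any tumour, and Gm16587 and Gm16548, which overlap Selp, had at most 12 and 8 counts in a tumour, where Selp had at least 118.

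**Figure D2:**
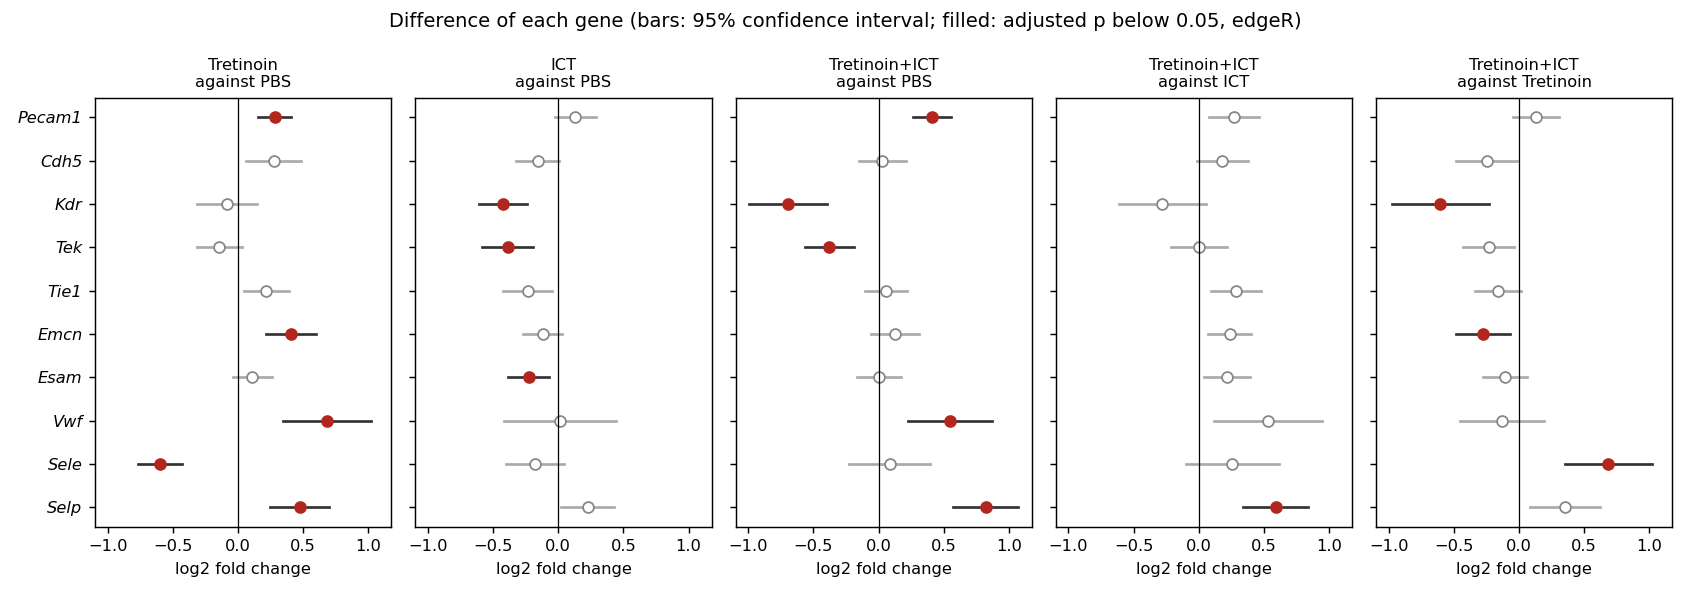
The log2 fold change of each gene (horizontal axes) in 5 comparisons of treatment groups, with bars for the 95% confidence interval and filled points for an adjusted p below 0.05 in edgeR. After tretinoin alone Sele lies at -0.60 and Selp at 0.47; with both agents against PBS the greatest difference is that of Selp, at 0.82, and the lowest that of Kdr, at -0.69.

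The next comparison asked what ICT alone changed. Of the 10 genes, 3 were lower and none higher, where 7.15% of 14155 genes tested were lower and 14.1% higher. Their median log2 fold change was -0.17 and that of all genes -0.02. Kdr, the main receptor through which VEGF drives vessel growth, had from 39.6 to 50.9 CPM with PBS (median 44.2) and from 24.8 to 47.2 CPM with ICT (median 33.7). In 9 of 10 ICT tumours it was below every PBS tumour, with a log2 fold change of -0.42 (SE 0.09, adjusted p 0.00400). Tek fell from a median of 13.6 CPM (range 9.72 to 15.6) to a median of 10.2 CPM (range 6.89 to 12.4), and all 10 ICT tumours were below the PBS median. Its log2 fold change was -0.39 (SE 0.09, adjusted p 0.00844). Esam was lower by a smaller amount, with a log2 fold change of -0.22 (SE 0.08, adjusted p 0.0384), and the call was lost without the 4 tumours that stood apart (adjusted p 0.0892) and without the low-count filter (adjusted p 0.0627). The change of Tie1 was of similar size, at -0.24 (SE 0.09), and did not pass (adjusted p 0.0649). Neither did those of Cdh5 (-0.16), Emcn (-0.12) and Pecam1 (0.13). Over the 4 pairings of name series Kdr ranged from -0.55 to -0.30 and passed in 2. Tek ranged from -0.48 to -0.28 and passed in 1, and Esam ranged from -0.40 to -0.04 and passed in none.

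Neither selectin passed with ICT alone. Sele ranged from 6.34 to 14.8 CPM (median 10.3), a log2 fold change of -0.18 with a 95% confidence interval of -0.40 to 0.04. Selp ranged from 7.84 to 13.04 CPM (median 9.93), a log2 fold change of 0.22 with an interval of 0.02 to 0.43 and an adjusted p of 0.108. Vwf spread widely, from 4.78 to 17.7 CPM, and its interval ran from -0.42 to 0.45. The pairings of name series gave log2 fold changes from -0.04 to 0.50 for Selp and from -0.39 to 0.45 for Vwf, so their direction depended on the series compared.

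Leukocyte markers rose in the same tumours. Of 7 leukocyte genes 6 were higher with ICT, as were all 6 macrophage genes and all 4 neutrophil genes tested, and the summed leukocyte level ranged from 1289 to 4188 CPM against 1239 to 2278 with PBS. Their part in the lower levels of Kdr and Tek was not tested. Kdr and Tek also passed without the 4 tumours that stood apart. Among the 8 pericyte and smooth muscle genes, which mark the cells that wrap vessels, 4 were lower, among them Pdgfrb at -0.33 and Mcam at -0.34. Of the 22 further endothelial genes 2 were higher, Ecscr at 0.33 and Eng at 0.28, and 4 were lower, among them Ushbp1 at -0.32 and Adgrl4 at -0.31. Icam1 and Vcam1, which hold leukocytes firmly after the selectins slow them, were higher by 0.88 (adjusted p 0.0143) and 0.54 (adjusted p 0.0203).

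With both agents, 3 of the 10 genes were higher than with PBS and 2 were lower, where 25.7% of the 14265 genes tested were higher and 24.5% lower, a share of all genes close to that of the 10. Selp had from 9.71 to 21.3 CPM (median 15.3), against 6.52 to 10.5 with PBS. In 9 of 10 tumours it was above every PBS tumour, and the log2 fold change was 0.82 (SE 0.12, adjusted p 1.51e-05). In the 4 pairings of name series it lay between 0.68 and 0.97. Pecam1 ranged from 105 to 162 CPM (median 126), with 9 of 10 tumours above every PBS tumour and a log2 fold change of 0.41 (SE 0.07, adjusted p 9.08e-05). Vwf ranged from 9.24 to 19.2 CPM (median 14.4), with a log2 fold change of 0.55 (SE 0.15, adjusted p 0.00538) that ranged from 0.23 to 0.91 over the pairings of name series.

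Kdr had its lowest levels in this group, from 15.4 to 40.8 CPM (median 26.9), and 9 of 10 tumours lay below every PBS tumour. Its log2 fold change was -0.69 (SE 0.14, adjusted p 4.98e-04). Tek ranged from 7.88 to 12.2 CPM (median 10.1), all below the PBS median, with a log2 fold change of -0.38 (SE 0.09, adjusted p 0.00154). Cdh5 (0.03, interval -0.15 to 0.21), Esam (0.00, interval -0.17 to 0.17) and Tie1 (0.06, interval -0.11 to 0.22) did not pass. Sele did not pass either, at 0.09 with an interval of -0.22 to 0.40. It spread more widely than in any other group, from 8.09 to 21.4 CPM (median 11.3), and 3 tumours were above every PBS tumour while 2 were below every one.

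In the same tumours all 7 leukocyte genes, all 6 macrophage genes and all 4 neutrophil genes tested were higher than with PBS, and the summed leukocyte level ranged from 1802 to 3987 CPM. Platelet genes summed to between 41.7 and 65.8 CPM, against 37.8 to 51.1 with PBS, and 1 of the 4 tested was higher, Itgb3 at 0.40, which other cells also express. The part of these cells in the levels of Pecam1, Selp and Vwf was not tested. Within the VEGF list Vegfa was higher by 1.33 and Flt1 by 1.48, while the lymphatic growth factor gene Vegfc had a change of -0.51 and the co-receptor genes Nrp1 and Nrp2 of -0.37 and -0.30. Of the 22 further endothelial genes 8 were higher and 4 lower, from Ecscr at 0.72 and Eng at 0.63 to Cd34 at -0.34. Selplg, the leukocyte ligand of P-selectin, was higher by 0.89 and Fut4, a fucosyltransferase, by 1.08, and Chst2, a sulfotransferase, had a change of -0.36. Icam1 was higher by 1.46 and Ackr1, a chemokine-binding protein of venules, by 0.96.

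The addition of tretinoin to ICT was tested by setting Tretinoin+ICT against ICT, where 1.57% of 14202 genes were higher and 0.422% lower. Among the 10 genes Selp alone passed. Its levels were 9.71 to 21.3 CPM with both agents and 7.84 to 13.04 with ICT, 7 of 10 tumours were above every ICT tumour, and the log2 fold change was 0.59 (SE 0.12, adjusted p 0.00759). Pecam1 (0.27, adjusted p 0.148) and Vwf (0.53, adjusted p 0.182) did not pass in the fit of the groups compared. With all 39 tumours in one fit Pecam1 passed, at 0.27 (adjusted p 0.0398). Without the 4 tumours that stood apart Pecam1 and Vwf both passed, at 0.37 (adjusted p 0.0103) and 0.67 (adjusted p 0.0357). Of the 10 genes 3 were then higher and none lower, where 9.58% of 14322 genes were higher and 7.32% lower. Here this left out only the ICT tumours 63 and 82, with summed leukocyte levels of 4188 and 3273 CPM. No Tretinoin+ICT tumour was left out, although tumours 41 and 42 had 3987 and 3484 CPM. Over the 4 pairings of name series, in which each series occurs more than once, Selp ranged from 0.47 to 0.73. None of the 10 genes passed in any pairing. Of the 22 further endothelial genes 4 were higher and none lower, among them Erg, a transcription factor of endothelial identity, at 0.41 and S1pr1, a receptor of the vessel barrier, at 0.38. No leukocyte, macrophage or neutrophil gene of the lists passed here by edgeR.

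The addition of ICT to tretinoin was tested by setting Tretinoin+ICT against Tretinoin, where 12.3% of 14393 genes were higher and 9.01% lower. Of the 10 genes 1 was higher and 2 were lower. Sele had from 8.09 to 21.4 CPM with both agents and from 6.33 to 9.50 with tretinoin alone, and 8 of 10 tumours were above every Tretinoin tumour. Its log2 fold change was 0.68 (SE 0.16, adjusted p 0.00797). Kdr was lower by this comparison too, with a log2 fold change of -0.61 (SE 0.18, adjusted p 0.0229), and all 10 tumours were below the Tretinoin median. Emcn had a change of -0.28 (SE 0.10) that passed narrowly (adjusted p 0.0494) and did not pass without the low-count filter (adjusted p 0.0751). Selp did not pass (0.35, adjusted p 0.0571), although it did in DESeq2 (adjusted p 0.0424), which called 22.3% of genes, and with all tumours in one fit (adjusted p 0.0271), where 14.6% of genes were higher. Without the 4 tumours that stood apart, Cdh5 (-0.30, adjusted p 0.0422) and Tek (-0.27, adjusted p 0.0293) passed as well, so that 1 gene was higher and 4 were lower, where 16.4% of 14465 genes were higher and 14.6% lower. In this comparison only the Tretinoin tumour 33 was left out by that step. Over the pairings of name series Kdr ranged from -0.99 to -0.26 and passed in 1 of 4, and Sele ranged from 0.53 to 0.83 and passed in none. All 7 leukocyte genes, 4 of 6 macrophage genes and all 4 neutrophil genes tested were higher with both agents, and their part in these differences was not tested. Of the 22 further endothelial genes 2 were higher and 6 lower, from Ecscr at 0.46 to Sox17 at -0.47.

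Whether the effect of tretinoin depended on ICT was tested as an interaction over all 39 tumours. Of the 10 genes Sele alone passed, where 0.0401% of 14977 genes had a higher and 0.267% a lower interaction. The log2 fold change of Sele with tretinoin was -0.60 without ICT. With ICT it was 0.26 and did not pass (interval -0.10 to 0.61, adjusted p 0.410). The interaction was 0.86 (SE 0.20, adjusted p 0.0378), and DESeq2, which called 0.453% of genes, gave an adjusted p of 0.00898. The call depended on single libraries. Leaving out each Tretinoin+ICT tumour in turn gave values from 0.75 to 0.92 and adjusted p from 0.0111 to 0.0595, and the call was lost without tumour 21, 23, 24 or 42. Tumours 24 and 42 had the highest Sele levels of all, at 21.4 and 18.5 CPM. Without tumours 14, 33, 63 and 82 the interaction was 0.82 (adjusted p 0.0769). Where a change of at least 1 on the log2 scale was also required, none of the 10 genes passed in any of the 5 comparisons of treatment groups, against 1.62% of genes for Tretinoin with PBS, 2.35% for ICT with PBS, 5.92% for Tretinoin+ICT with PBS, 0.394% for Tretinoin+ICT with ICT and 2.08% for Tretinoin+ICT with Tretinoin. For Selp the interaction was 0.11, with a 95% confidence interval of -0.22 to 0.45.

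Vwf, Sele and Selp were also set against Cdh5 within each tumour, as the log2 ratio of CPM. A change of Cdh5 itself enters these ratios. Its log2 fold change was 0.27 for Tretinoin against PBS, -0.25 for Tretinoin+ICT against Tretinoin and 0.03 for Tretinoin+ICT against PBS. Whether the endothelial share of a tumour changed was not tested. Of 15 comparisons (3 genes and 5 pairs of groups, by permutation, two-sided, and exact whenever the smaller group had 9 tumours), 3 passed after Benjamini-Hochberg adjustment. The mean log2 ratio of Sele to Cdh5 was -2.84 ± 0.26 (SD) in the 10 PBS tumours and -3.70 ± 0.38 in the 9 Tretinoin tumours. The difference was -0.85 (exact permutation p = 0.000108, adjusted p 0.00162), and 7 of 9 tumours were below every PBS tumour. With both agents the ratio was -2.84 ± 0.59, higher by 0.86 than with tretinoin alone (exact permutation p = 0.00132, adjusted p 0.00660). Selp relative to Cdh5 was -3.33 ± 0.35 with PBS and -2.55 ± 0.50 with both agents, higher by 0.78 (permutation p = 9.00e-04, adjusted p 0.00660), with 6 of 10 tumours above every PBS tumour. For tretinoin alone against PBS the Selp ratio differed by 0.20 and did not pass (adjusted p 0.452), and none of the 5 Vwf comparisons passed. With Pecam1 in place of Cdh5 the difference of Sele between both agents and tretinoin alone was 0.50 (exact permutation test, adjusted p 0.0372), and that of Selp between both agents and PBS was 0.40 (permutation test, adjusted p 0.0372).

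**Figure D3:**
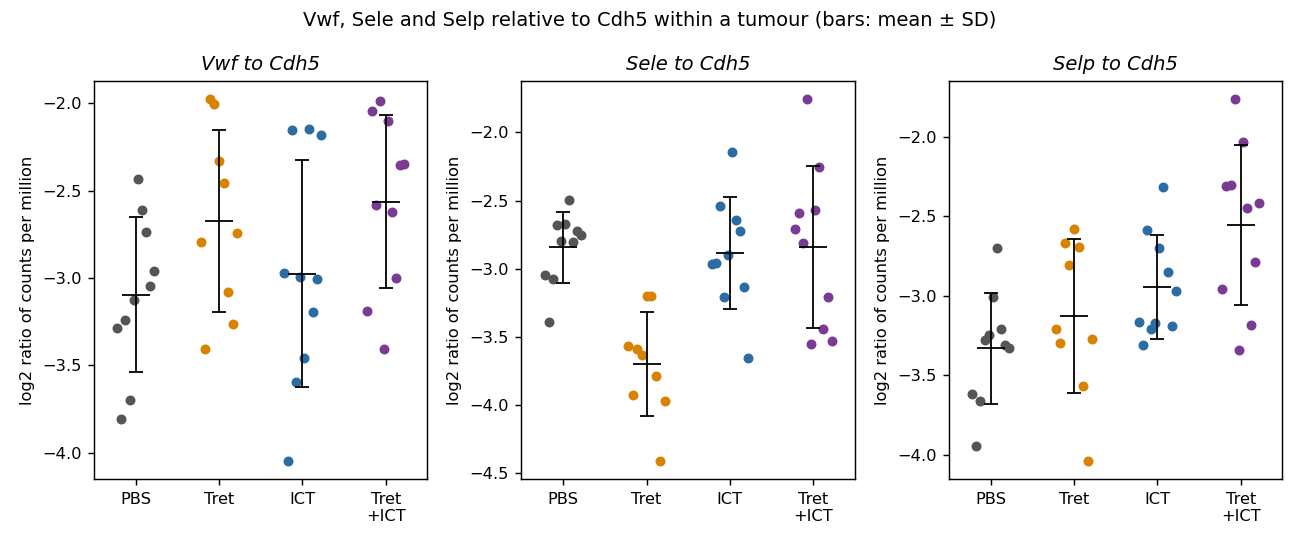
Log2 ratio of the CPM of Vwf, Sele or Selp to that of Cdh5 within each of 39 tumours, by treatment group (Tret, tretinoin), with the mean ± SD. The Sele ratio has its lowest mean in the Tretinoin group, at -3.70, and the Selp ratio its highest in the Tretinoin+ICT group, at -2.55.

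The level of Selp was also set against that of Sele within each tumour. As the log2 ratio of CPM per kilobase, Selp to Sele was between -1.20 and -0.80 with PBS, between -0.38 and 0.32 with tretinoin, between -1.15 and 0.08 with ICT and between -0.85 and 0.51 with both. The Tretinoin and PBS tumours did not overlap on this ratio, while the ranges of the ICT and Tretinoin+ICT tumours overlapped that of PBS. Selp was above Sele on this scale in none of 10 PBS tumours, in 5 of 9 Tretinoin tumours, in 1 of 10 ICT tumours and in 1 of 10 Tretinoin+ICT tumours. No test was run on this ratio.

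The last comparison set the tumours of 6 responders against those of 4 non-responders within the Tretinoin+ICT group. None of the 10 genes passed in edgeR, and neither did any of the 14604 genes tested, although 3302 of them (22.6%) had an unadjusted p below 0.05. DESeq2 called 10.9% of the 12818 genes to which it gave an adjusted p. Pecam1 had 118, 133, 143, 143, 152 and 162 CPM in responders and 105, 110, 115 and 117 CPM in non-responders. The groups did not overlap, as was so for 1.98% of genes in this direction. Its log2 fold change was 0.36 (SE 0.08, unadjusted p 0.00102, edgeR adjusted p 0.0841), and it was the only one of the 10 genes called by DESeq2 (adjusted p 0.00704).

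Kdr had 15.4, 17.4, 21.5, 22.8, 27.4 and 34.5 CPM in responders and 26.4, 35.9, 36.4 and 40.8 CPM in non-responders. The groups overlapped through the responder tumour 43 at 34.5 and the non-responder tumour 44 at 26.4 CPM. The log2 fold change was -0.57 (SE 0.21, unadjusted p 0.0192, edgeR adjusted p 0.141). Without tumour 43, Pecam1 (0.35, adjusted p 0.0265) and Kdr (-0.74, adjusted p 0.0255) both passed in edgeR, where 6.68% of 14540 genes were higher and 5.74% lower in responders. In the other 9 fits that left out 1 tumour neither passed, and the adjusted p was as high as 0.266 for Pecam1 and 0.335 for Kdr. Responders made up 2 of 5 tumours in name series 2 and 4 of 5 in name series 4. Within series 2 the mean of Pecam1 was 147 CPM in responders and 111 in non-responders, and that of Kdr 22.1 and 37.7. Series 4 held a single non-responder, at 115 CPM for Pecam1 and 26.4 for Kdr, against responder means of 139 and 23.7. With the series as a block neither passed (adjusted p 0.121 for Pecam1 and 0.270 for Kdr).

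Neither selectin passed between responders and non-responders. Sele had from 8.09 to 21.4 CPM in responders and from 8.37 to 14.7 in non-responders, a log2 fold change of 0.26 with an interval of -0.35 to 0.86. Selp had from 11.8 to 21.3 CPM and from 9.71 to 17.1 CPM, a log2 fold change of 0.30 with an interval of -0.08 to 0.69. Leukocyte genes summed to between 2205 and 3987 CPM in responders and between 1802 and 2899 in non-responders, and macrophage genes to between 3625 and 4211 CPM and between 2921 and 3437 CPM. Leukocytes and macrophages can carry Pecam1, and their part in its level was not tested.

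Finally, the covariation of the 10 genes was described over the 39 tumours after centring each gene on its treatment mean, on log2 CPM. All values of 1 tumour share a library, and no test was made of these correlations. Cdh5 and Tie1 (r = 0.73), Tie1 and Esam (r = 0.70), Tie1 and Emcn (r = 0.58), Cdh5 and Kdr (r = 0.57) and Cdh5 and Emcn (r = 0.57) moved together. Vwf and Selp, whose products share a storage granule, also moved together (r = 0.61), as did Sele and Selp (r = 0.46). Tek went with Cdh5 (r = 0.49), Tie1 (r = 0.43) and Vwf (r = 0.41). Kdr had lower values with Tek (r = 0.39), Tie1 (r = 0.18), Emcn (r = 0.15) and Esam (r = 0.09) than with Cdh5. Selp ran against Cdh5 (r = -0.49) and Kdr (r = -0.46), and Pecam1 against Kdr (r = -0.58). Centring on the name series instead gave 0.77 for Cdh5 and Tie1, 0.54 for Vwf and Selp and -0.54 for Pecam1 and Kdr.

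**Figure D4:**
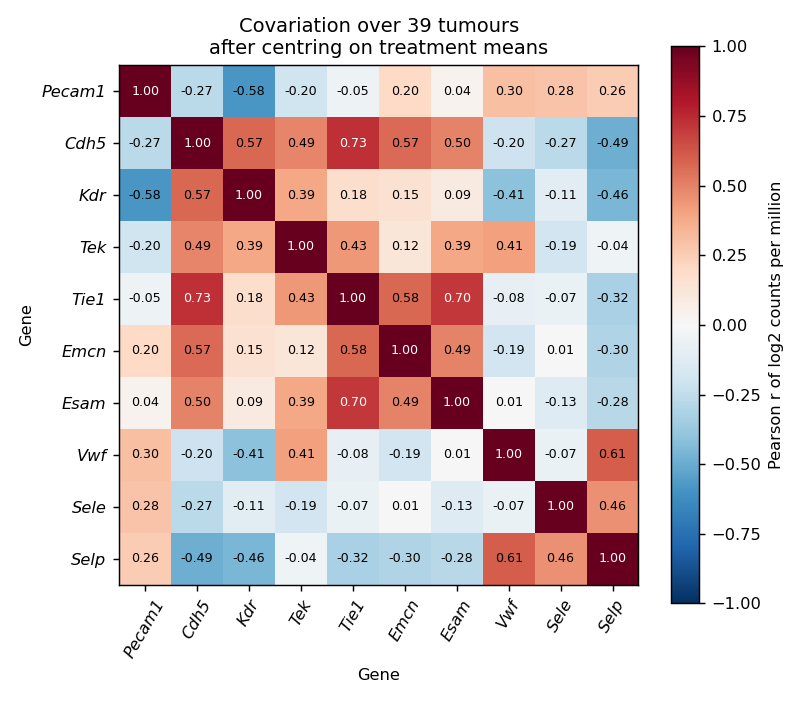
Pearson correlation of log2 CPM between the 10 genes over 39 tumours, after subtracting each treatment group's mean, on a colour scale from -1 to 1. Cdh5, Tie1, Esam and Emcn are positively related (0.73 for Cdh5 and Tie1), whereas Selp is related to Vwf (0.61) and Sele (0.46) and runs against Cdh5 (-0.49).

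Among 13346 genes of sufficient level, the genes whose pattern over the 39 tumours was most like each of the 10 also differed. For Cdh5 they were Col4a2 (r = 0.88), a collagen of the vessel basement membrane, Adamts7 (0.88) and Mcam (0.85), an adhesion molecule of vessel walls. Mcam was also closest to Tie1 (0.82). Kdr was most like Itga6 (0.89), a laminin receptor subunit, and Pecam1 most like Ralgds (0.89), Appl2 (0.86) and Ece1 (0.86), the endothelin converting enzyme. Vwf was most like Slc4a4 (0.76), Tek most like Scn7a (0.78), Emcn most like Exoc3l (0.65) and Esam most like Tie1 (0.70). Selp was most like Des (0.79), the intermediate filament of muscle, Serpinb1a (0.78) and Serpina3n (0.77). Sele had its highest values with Kmo (0.67), Kcnj15 (0.64) and Slfn4 (0.63). The 4 skeletal muscle genes found in the table, which mark tissue taken with the tumour, summed to between 315 and 1606 CPM with PBS and between 438 and 3309 CPM with both agents, and their relation to Selp was not tested.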

How the data were processed

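RNA from 39 whole tumours was sequenced as single-end reads on a NovaSeq instrument. The authors aligned the reads with HISAT2 2.0.4 (bcl2fastq 2.20.0.422 is also listed in the submitters' processing notes) to a mouse genome called mm11 and used SummariseOverlaps for counting. The deposited values are raw counts per gene. Strand mode and reads with several alignments are not described in the sources used here. Of the gene identifiers, 92.55% match GENCODE M21 (GRCm38), from which positions and exon lengths were taken.

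Counts were normalised by TMM and tested with edgeR 4.0.16 (filterByExpr, robust quasi-likelihood) in R 4.3.3, on the tumours of the groups compared, and on all 39 for the interaction. The standard error is the size of the log2 fold change over the square root of F. CPM values are from 14977 genes, and log2 values use a prior count of 2. DESeq2 1.42.0 was an alternative, as were its size factors in edgeR, other low-count filters, all tumours in one fit, a log2 fold minimum of 1, name series, another denominator or prior count for ratios, and leaving out tumours. Ratios were tested by permutation in scipy 1.17.1 (two-sided). The steps were checked on simulated data.

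The text names all 10 genes, the list genes with the greatest and lowest changes and up to 5 that passed, and for each of the 10 the genes most correlated with it after centring on treatment means, up to 3 of which are given. Des and Mcam are named under more than 1 of these. The genes and lists were chosen with earlier results of these data known. Some listed genes were not analysed here, and some are not reported here.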

Additional observations from a re-analysis of the deposited data

Results flagged for a closer look

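Tek in the PBS group had a lowest value, tumour 14 at 9.72 CPM, with the nearest other tumour at 12.3 CPM. On the log2 scale this gap was larger than Dixon's test allows at the 95% level. This was the only such value in 60 tests of a gene in a group, and chance gives about 1 in 20. Tumour 14 also had the highest summed leukocyte level of its group, at 2278 CPM. Tek remained lower with ICT and with Tretinoin+ICT when tumours 14, 33, 63 and 82 were left out.

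The effect of tretinoin on Sele differed between mice with and without ICT, by 0.86 on the log2 scale (edgeR interaction, adjusted p 0.0378). In the groups without ICT the 9 Tretinoin tumours lay below every PBS tumour. In the groups with ICT, 2 of 10 Tretinoin+ICT tumours lay above every ICT tumour and 7 above the ICT median. The difference between the groups with ICT did not pass (0.26, edgeR adjusted p 0.410). The call of the interaction was lost when tumour 21, 23, 24 or 42 was left out.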

How the results depend on the processing

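With a log2 fold change minimum of 1, 0 of the 10 genes passed in each of the 5 treatment comparisons. With all 39 tumours in one fit 2 passed for Tretinoin+ICT against ICT, Pecam1 among them. Without tumours 14, 33, 63 and 82 this was 3, 5 passed for Tretinoin+ICT against Tretinoin, and 0 for the interaction. For responders DESeq2 called 1, and leaving out each tumour gave 0 to 2. Leaving out each Tretinoin+ICT tumour gave 0 to 1 for the interaction. The last set and the interaction without the 4 tumours were chosen after seeing the data. With Pecam1 in place of Cdh5, 5 of 15 ratios passed. For Tretinoin+ICT against PBS the Sele ratio differed by 0.003 with Cdh5 (adjusted p 0.990, permutation test). With Pecam1 it differed by -0.37 (adjusted p 0.0375, permutation test), where Pecam1 itself had a log2 fold change of 0.41. Beyond these the cause of a change was not tested.

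Of the alternatives for a count of genes or ratios passing, 52 gave a similar count. Of those for a single gene or ratio, 842 were counted as the same, 13 gained and 8 lost a call, and 1 ratio changed sign. In addition, 6 pairings of name series moved a value beyond the spread. Calls lost in pairings of name series are not among the 8. For Tretinoin against PBS, Sele passed in 3 of 4 pairings, Pecam1, Emcn and Selp in 2 and Vwf in 1. For Tretinoin+ICT against ICT, Selp passed in 0 of 4. No paired analysis was possible because the labels give no replicate number that the treatment groups share. Depth limits Vwf in particular, which had as few as 88 counts in a tumour.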

Other observations

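Of 9 Weibel-Palade body and haemostasis genes tested, Thbd, which encodes thrombomodulin, was the only one higher after tretinoin (0.24 on the log2 scale, edgeR adjusted p 0.0298) and none was lower, with a list median of 0.20 against 0.01 for all genes. With both agents against PBS, 2 were higher, Rab27a at 0.86 and Procr at 0.40, and 3 lower, with Adamts13, the protease that cleaves von Willebrand factor, at -1.03 (adjusted p 0.000690). Among genes of selectin ligands and their enzymes, Fut4 (0.73), Podxl (0.47) and Chst2 (0.25) were higher after tretinoin and Gcnt1 (-0.33) lower. After ICT the genes that passed included Selplg (0.65), Fut7 (0.94) and B4galt1 (0.32), which were higher, and Chst2 (-0.38) and Podxl (-0.24), which were lower.

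Lymphatic vessels share several of these genes. Of 5 lymphatic endothelial genes tested, Flt4, the receptor for VEGF-C, was higher after tretinoin (0.46, edgeR adjusted p 0.0167) and lower after ICT (-0.37, adjusted p 0.0104). After ICT 1 other gene of this list was higher, and the list median was 0.22. Among the 8 pericyte and smooth muscle genes, 1 was lower after tretinoin, Cspg4 at -0.99 (adjusted p 0.0106). With both agents against PBS 1 was higher, Des at 1.01 (adjusted p 0.00160), and 2 lower, Cspg4 at -1.28 (adjusted p 0.000277) and Rgs5 at -0.27 (adjusted p 0.0117), with a list median of -0.19.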
